A study of Salmo salar with 40 samples.

Results

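Translation initiation and elongation factors are the proteins that bring messenger RNA, initiator transfer RNA and the ribosome together and then carry the ribosome along the message. Members were chosen by name from the deposited table of liver messenger RNA: a gene joined when its description held "translation initiation factor", "elongation factor 1", "elongation factor 2" or "eukaryotic translation elongation factor", and did not hold "binding protein", "4E-1A-binding", "kinase" or "transcription". The rule found 163 of 79140 gene entries and used no measured value. Of these members, 139 had enough reads to be tested. The other 24, mostly IF-2-like and elongation factor 1-alpha entries, had a group mean of at most 0.142 CPM (the read count scaled to the size of the library), and 2 of them had no reads. Together the members held 0.771% to 1.31% of the counts of a fish.

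The fish were Atlantic salmon, whose genome kept many duplicated genes, so that most factors had several entries. Salmon are given lufenuron against sea lice, whose chitin synthesis this benzoylurea inhibits. Fish exposed to 5 mg of lufenuron per kg and fish given none were sampled at day 8, 1 day after the treatment, and at day 14, 7 days after it, with 10 fish in each of the 4 groups and 1 liver library per fish. The groups are called lufenuron fish of day 8, control fish of day 8, lufenuron fish of day 14 and control fish of day 14. Fish of day 8 weighed 34 to 44 g, and fish of day 14 weighed 17 to 67 g, with 3 control fish under 20 g. The sources used here give no strain, genotype, tank, feed or time of day. The p-values therefore measure only how far single fish differed, and a difference between tanks cannot be told apart from a difference between groups.

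Initiation starts when eIF2, a complex of an alpha, a beta and a gamma subunit, carries the initiator transfer RNA to the small ribosomal subunit with the help of eIF1, eIF1A, eIF3 and eIF5, while eIF4E, eIF4G and the helicase eIF4A bring in the capped message. eIF2B reloads eIF2 with GTP, and stress kinases slow this step by phosphorylating eIF2 alpha. In elongation, eEF1A delivers aminoacyl transfer RNAs, the eEF1B subunits reload eEF1A, and eEF2 moves the ribosome by a codon. The liver makes plasma proteins in bulk and depends heavily on this machinery.

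Between 43409354 and 76753231 reads per fish were counted on genes. Summed hepatocyte markers, such as albumin and apolipoprotein A-I, held 86754 to 170140.0 CPM in every fish, against 6.74 to 352 CPM for exocrine pancreas markers and 1.62 to 236 CPM for gut and bile duct epithelium markers. Hepatocyte markers were thus high in every fish, and markers of pancreas, gut and bile duct were low, with traces in some fish. Over all fish, erythrocyte markers summed to 1218 to 4261 CPM, and stellate cell and endothelium markers to 268 to 895 CPM. Levels are in CPM after TMM scaling, and since gene lengths were not used, they can be compared between fish but not between genes. In bulk liver, fewer cells of a type and less RNA per cell cannot be told apart.

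At day 8, 2 of 4 entries for the alpha subunit of eIF2 and 1 of 4 for the loosely bound subunit J of eIF3 were lower in lufenuron fish than in control fish, while the alpha entry with most reads did not pass the test. Of the 139 members tested, 3 fell and 0 rose at an adjusted p under 0.05 (edgeR's quasi-likelihood test, Benjamini-Hochberg over all genes). That is 2.16% of the members, against 1.63% of all 30397 genes, of which 1.16% fell and 0.467% rose. At an unadjusted p under 0.05 the members stood out more: 38 of 139 (32 lower and 6 higher in lufenuron fish), against 16.1% of all genes. Members vary together among fish, so these 38 do not count separately. The share of members past the adjusted threshold was, by contrast, near that of all genes. With total counts as the only scaling, 10.3% of the calls over all genes were higher in lufenuron fish, against 28.7% with TMM. The median log2 fold change, lufenuron over control, was -0.10 over the members and 0.0052 over all genes. Of the members, 100 of 139 had a negative value, against 49.2% of all genes.

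**Figure D1:**
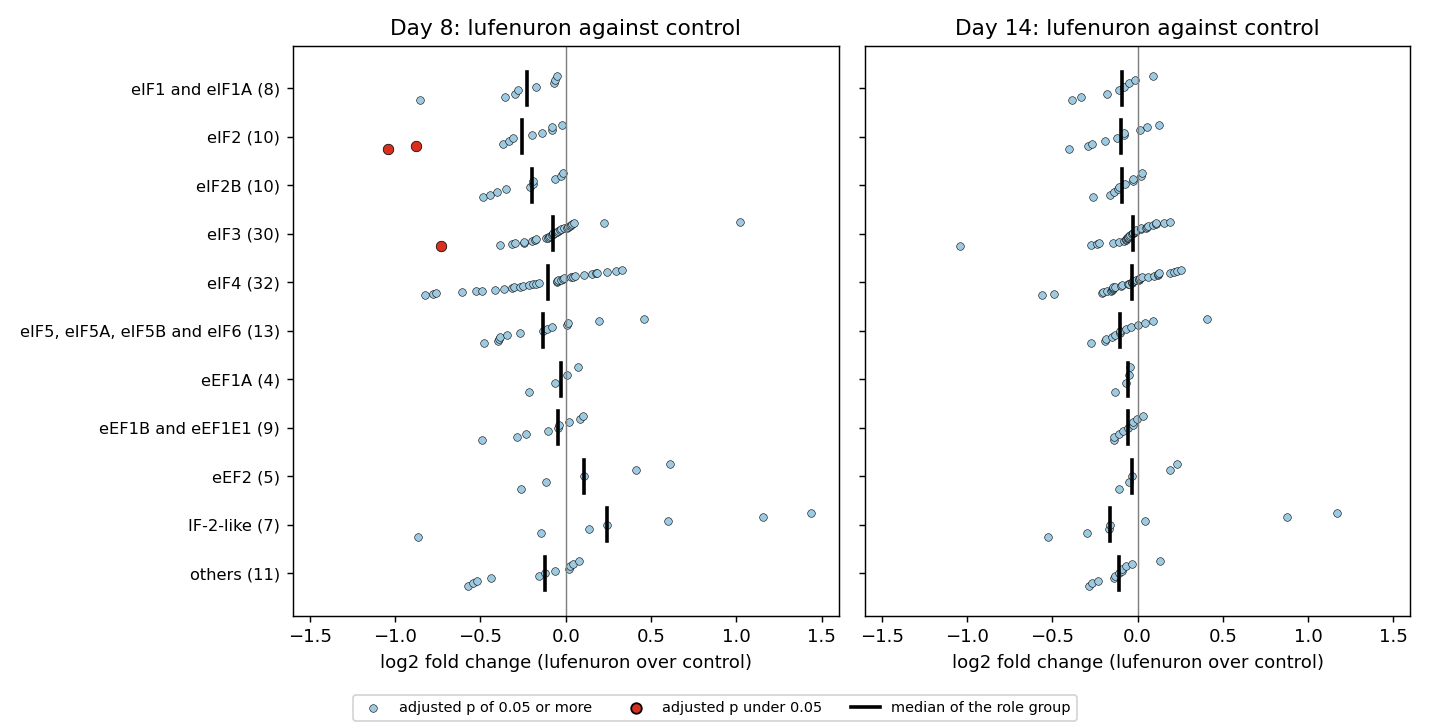
Log2 fold change, lufenuron over control, of each tested member (points) at day 8 and day 14, by role, with the number of members in parentheses and the median of each role as a bar. Red points passed an adjusted p under 0.05: 2 eIF2 entries and 1 eIF3 entry at day 8, and none at day 14.

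The eIF2 alpha subunit carries the serine that stress kinases phosphorylate, and 4 entries encoded it. The entry if2a had a lowest, median and highest level of 1.56, 2.88 and 3.66 CPM in lufenuron fish of day 8, against 2.27, 5.44 and 9.63 CPM in control fish of day 8. Lufenuron fish were low and close together, and the groups overlapped only through control fish 1, at 2.27 CPM. The log2 fold change was -1.04 ± 0.21 (SE, edgeR's quasi-likelihood test, adjusted p = 0.0127).

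LOC106602525, an eIF2 subunit 1-like entry, showed the same pattern, with 1.77, 2.45 and 4.34 CPM as the lowest, median and highest level in lufenuron fish, against 1.38, 4.49 and 9.77 CPM in control fish of day 8. Control fish 1 was again the lowest control, control fish 3 was far above the others, and 4 control fish lay at or below the highest lufenuron fish. Its log2 fold change was -0.88 ± 0.24 (SE, adjusted p = 0.0474). The alpha entry with most reads, LOC106571672, averaged 25.6 ± 5.04 CPM in lufenuron fish and 33.0 ± 9.86 CPM in control fish of day 8 (SD, n = 10 each), and its log2 fold change of -0.37 ± 0.18 did not pass (adjusted p = 0.318). The fourth entry, LOC106608216, had 1.61 ± 0.263 CPM in lufenuron fish and 2.02 ± 0.351 CPM in control fish of day 8, with a log2 fold change of -0.33 ± 0.12 (adjusted p = 0.152).

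Summed over the 4 alpha entries, the level was 32.5 ± 5.64 CPM in lufenuron fish and 45.5 ± 13.6 CPM in control fish of day 8 (SD, n = 10 each). The beta subunit, which binds eIF5 and eIF2B, summed over its 4 entries to 194 ± 31.1 CPM in lufenuron fish and 221 ± 58.8 CPM in control fish. For the gamma subunit, which binds GTP and the initiator transfer RNA, the sums over 2 entries were 150.3 ± 29.0 CPM in lufenuron fish and 156 ± 21.3 CPM in control fish. No beta or gamma entry passed the test at day 8, and the ranges of the groups overlapped for all 3 sums. The entry if2a supplied 8.69% ± 2.28 of the alpha level in lufenuron fish and 12.4% ± 2.86 in control fish of day 8. The sources used here do not say how the authors' counting assigned reads shared by such near-identical copies, and the split between copies is uncertain.

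**Figure D2:**
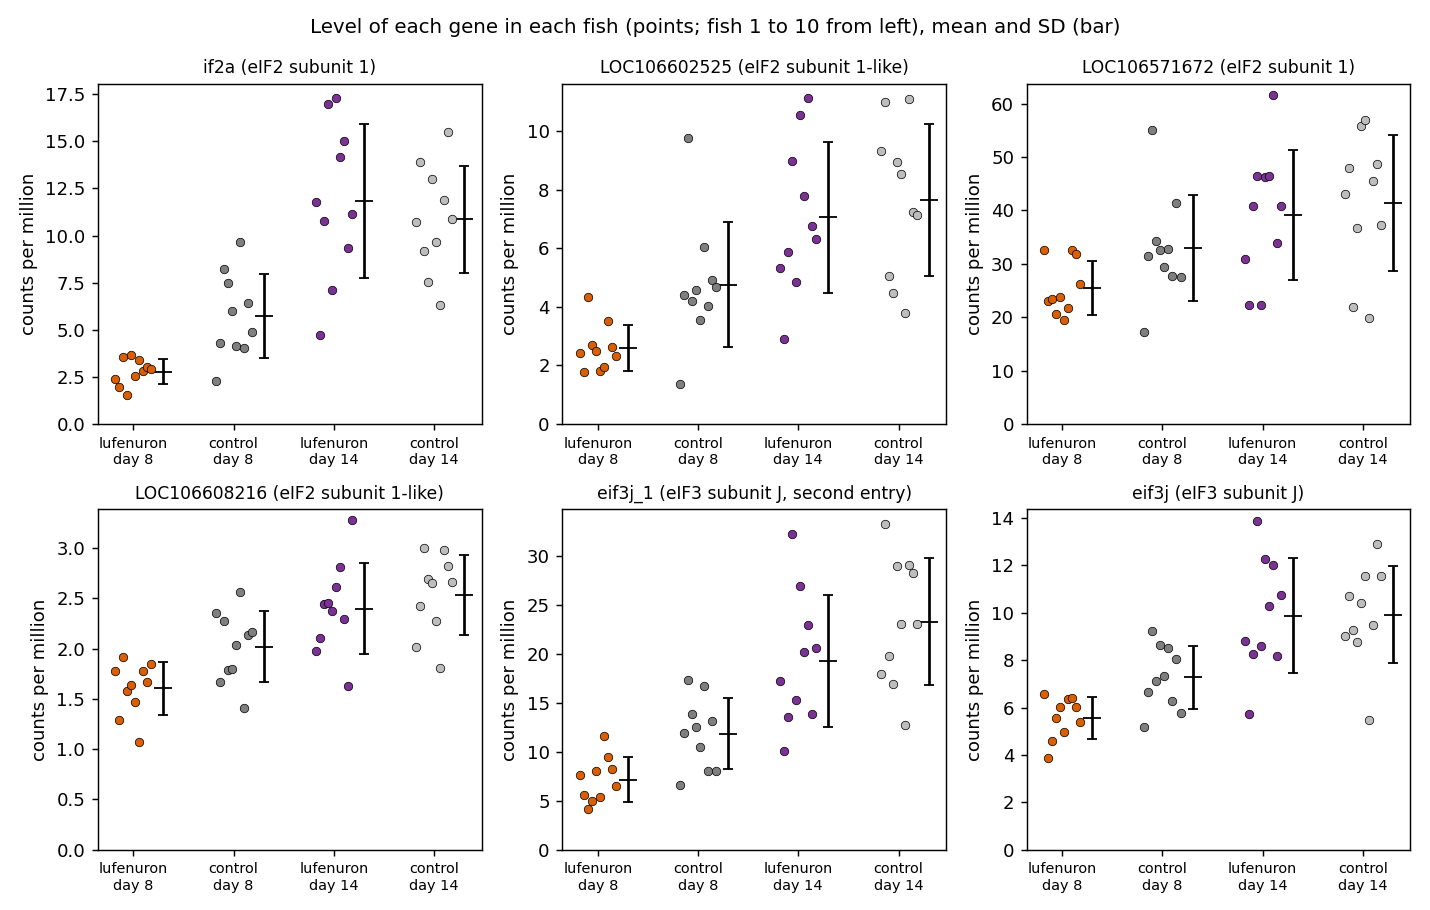
CPM of the 4 eIF2 alpha entries and of 2 eIF3 subunit J entries in each fish (points, fish 1 to 10 from left to right within a group), with the mean and SD of each group as a bar, n = 10. In if2a, the 10 lufenuron fish of day 8 lie between 1.56 and 3.66 CPM, below 9 of the 10 control fish of that day and below every fish of day 14.

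eIF3 is the large scaffold that holds the small ribosomal subunit open for the message, and its J subunit is loosely attached and reaches into the decoding site. The entry eif3j_1 had 4.17, 7.08 and 11.6 CPM as the lowest, median and highest level in lufenuron fish of day 8, against 6.57, 12.2 and 17.4 CPM in control fish of day 8. 5 of the 10 lufenuron fish lay below every control fish, while lufenuron fish 7, the highest of its group, lay among the controls. The log2 fold change was -0.73 ± 0.20 (SE, adjusted p = 0.0484). The table shortens the name of eif3j_1, and its symbol gives the subunit. None of its duplicates passed: eif3j had a log2 fold change of -0.39 ± 0.13 (adjusted p = 0.123), and the J-A-like entries LOC106561754 and LOC106584719 had -0.31 ± 0.18 (adjusted p = 0.402) and 0.049 ± 0.41 (adjusted p = 0.970). Over the 30 eIF3 entries the median was -0.075. The core subunit C entry LOC106578327, the eIF3 entry with most reads, averaged 238 ± 54.5 CPM in lufenuron fish and 232 ± 28.1 CPM in control fish of day 8 (log2 fold change 0.036 ± 0.12).

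The 3 calls depended on which fish were kept. Without the 9 fish that had over 100 CPM of summed exocrine pancreas markers, a choice made after the data were seen, 0 members passed. Then if2a had a log2 fold change of -1.13 (adjusted p = 0.0684), LOC106602525 one of -1.01 (adjusted p = 0.116) and eif3j_1 one of -0.65 (adjusted p = 0.223). More lufenuron than control fish were left out. At day 8 they were lufenuron fish 3, 9 and 10 and control fish 9. At day 14 they were lufenuron fish 1, 5, 6 and 7 and control fish 9. The pancreas markers summed to 7.19 to 210.0 CPM (median 35.7) in lufenuron fish and 7.49 to 144 CPM (median 10.2) in control fish of day 8. Of their 51 entries, 8 were at 0 in every fish, and 25 of the 27 tested had a positive log2 fold change at day 8, none past the threshold. Their part in the result was not tested. Without control fish 1 of day 8, the lowest control for all 3 entries, 12 members passed. These were the 3 above and eif1ad, LOC106577251, eif2d, if4e, ei2bg, eef1e1, LOC106590461 and LOC106574637, all lower in lufenuron fish, and LOC106570964, higher in lufenuron fish. LOC106590461, an eIF1A entry, was named after its values were seen. LOC106570964 rested in part on lufenuron fish 9 of day 8, at 6.78 CPM. Its log2 fold change was 0.61 with all fish (edgeR, adjusted p = 0.0746) and 0.30 without fish 9 (0.215). Without any 1 of 13 fish other than control fish 1 of day 8, 1 member, if2a, passed. These were control fish 2, 3, 4, 5, 7 and 9 and lufenuron fish 1, 2, 4, 6, 9 and 10 of day 8, and control fish 1 of day 14.

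Several of these entries belong to the cap-binding complex and to subunit joining. eIF4E binds the cap of the message, and its entry if4e had 9.47, 13.5 and 22.4 CPM as the lowest, median and highest level in lufenuron fish of day 8, against 6.76, 22.4 and 49.3 CPM in control fish of day 8. Control fish 3 was highest and control fish 1 lowest of all 20, so the control range enclosed the lufenuron range. Its log2 fold change of -0.83 ± 0.27 did not pass (adjusted p = 0.0933). The eIF4E-like entry LOC106577251 gave -0.76 ± 0.23 (adjusted p = 0.0723). For the scaffold eIF4G, the 1-like entry LOC106568864, which had most reads among eIF4 members, averaged 74.9 ± 20.6 CPM in lufenuron fish and 114 ± 41.1 CPM in control fish (log2 fold change -0.61 ± 0.23, adjusted p = 0.153).

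By role, every tested entry of 3 groups had a negative log2 fold change at day 8: 8 of 8 for eIF1 and eIF1A, which open the ribosome for scanning, 10 of 10 for eIF2 and 10 of 10 for eIF2B, with medians of -0.23, -0.25 and -0.20. Copies of a subunit are not independent, and apart from the eIF2 alpha entries none of these passed. At day 14 the values were negative for 7 of 8, 7 of 10 and 8 of 10 of them, with medians of -0.093, -0.099 and -0.093. With total counts as the only scaling, 5, 6 and 9 of them were positive at day 14. The elongation factors with most reads were close to even between the groups at day 8. The eEF1A entry LOC100136485 had 2096 ± 295 CPM in lufenuron fish and 1997 ± 245 CPM in control fish of day 8 (log2 fold change 0.069 ± 0.095), and the eEF2-like entry LOC106569524 had 1705 ± 234 CPM in lufenuron fish and 1583 ± 132 CPM in control fish (0.11 ± 0.091). Neither passed in any of the 51 alternative analyses.

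At day 14, no member passed the test between lufenuron and control fish. edgeR called 0 of 139 members, as it called 0% of all genes, while the unadjusted p was under 0.05 for 6 of 139 members, a lower share than the 8.02% of all genes. DESeq2 called 0 members and 20 genes in all. Of the members, 99 of 139 had a negative value, as 100 did at day 8, against 49.2% of all genes. The median log2 fold change was -0.059 over the members and 0.0042 over all genes. With total counts as the only scaling the sign of the member median turned, to 0.12, below the median over all genes, which then stood at 0.19. The entry if2a averaged 11.8 ± 4.11 CPM in lufenuron fish and 10.9 ± 2.83 CPM in control fish of day 14 (log2 fold change 0.12 ± 0.21), and eif3j_1 averaged 19.3 ± 6.73 CPM in lufenuron fish and 23.3 ± 6.53 CPM in control fish (log2 fold change -0.27 ± 0.20; SD, n = 10 each). Nearly every fish lay within the range of the other group for both entries. The smallest p-values belonged, among entries with positive values, to the IF-2-like LOC106566297, the eIF5A-1 entry LOC106608670 and eif4e3, with log2 fold changes of 0.88, 0.41 and 0.23, and among those with negative values to if4e2_1, the eIF2 beta entry if2b and the eIF5-like LOC106610956, with -0.49, -0.40 and -0.27.

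Whether the lufenuron effect itself differed between the days was tested as the effect at day 14 minus that at day 8. None of the 139 members passed with edgeR, against 0.0493% of all genes (0.0263% with a positive and 0.023% with a negative difference). The unadjusted p was under 0.05 for 13 of 139 members, against 10.8% of all genes, and DESeq2 called 1 member, if2a. For if2a the difference was 1.17 ± 0.30 on the log2 scale (SE, adjusted p = 0.143). The eIF4E type 2 entry if4e2_1, whose protein binds caps without eIF4G in mammals, had the difference with the smallest p in the other direction, -0.54 ± 0.20 (adjusted p = 0.295). The next in each direction were eif2d and the eIF3 subunit B-like LOC106593793, with 0.65 and 0.40, and the eIF4G3-like LOC106582990 and the IF-2-like LOC106613369, with -0.35 and -0.30, none of which passed. For if2a the call depended on the analysis. It passed in 4 of 50 alternatives: with DESeq2, with total counts as the only scaling (1.39, edgeR, adjusted p = 0.0310), without control fish 1 of day 8 and without lufenuron fish 2 of day 14.

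Between day 8 and day 14, many members rose in lufenuron fish and in control fish, but some of the entries with most reads, among them those of eEF1A, eEF2, eIF5A and eIF3 subunit C, did not pass the test in either. In lufenuron fish, 71 of 139 members rose and 11 fell (59.0%), against 34.9% of all genes, of which 17.7% rose and 17.2% fell. In control fish, 46 rose and 3 fell (35.3%), against 19.3% of all genes, with 10.4% rising and 8.97% falling. The median log2 fold change, day 14 over day 8, was 0.35 over the members in lufenuron fish (all genes -0.029) and 0.28 in control fish (all genes -0.0046). With total counts as the only scaling, 75.7% of the calls over all genes in lufenuron fish were rises, against 50.7% with TMM. In control fish the share was 39.1%, against 53.6% with TMM. Among members, 83 then rose and 6 fell in lufenuron fish, and 32 rose and 4 fell in control fish. The medians moved as well, to 0.52 over the members in lufenuron fish (all genes 0.16) and 0.22 in control fish (all genes -0.068). Each contrast sets fish of one day against other fish of another day, and whatever else differed between the days cannot be told apart from time.

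The lufenuron and control comparisons over time share no fish. Of their calls, 46 members passed in both with the same sign, 43 higher and 3 lower at day 14. That was 56.1% of the member calls in lufenuron fish and 93.9% of those in control fish, against 43.1% and 77.8% over all genes called. Across the 139 members, the log2 fold changes of both sets of fish had a Pearson r of 0.867, against 0.702 across all genes. The members share libraries and are not independent. In 86 members the value was higher in lufenuron fish. This gap is the difference of the lufenuron effect between the days, for which no member passed with edgeR and all fish. A member that passed over time in lufenuron fish but not in control fish thus had no called difference between the sets.

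**Figure D3:**
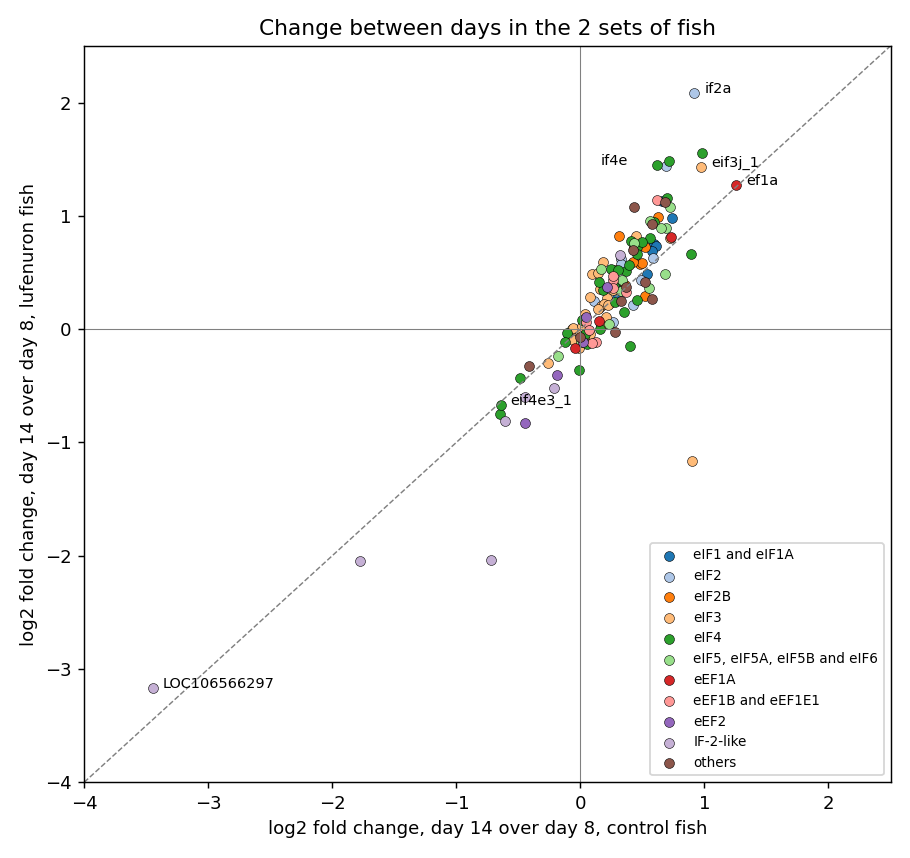
Log2 fold change, day 14 over day 8, of each tested member in lufenuron fish (vertical) and in control fish (horizontal), coloured by role, with the line of equal change dashed. Most points lie above 0 on both axes, if2a stands highest at 2.09 in lufenuron fish, and LOC106566297 lies lowest at -3.17 in lufenuron and -3.45 in control fish.

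Within eIF2, if2a had 4.75, 11.4 and 17.3 CPM as the lowest, median and highest level in lufenuron fish of day 14, against 1.56, 2.88 and 3.66 CPM in lufenuron fish of day 8, with no overlap. Its log2 fold change of 2.09 ± 0.22 was the one with the smallest p among members that rose in lufenuron fish (adjusted p = 3.92e-09). In control fish it was 0.92 ± 0.21 (adjusted p = 0.00191), with overlapping days. As a share of the alpha level, if2a made up 19.4% ± 2.83 in lufenuron fish of day 14 and 8.69% ± 2.28 in those of day 8, while LOC106571672 made up 64.8% ± 3.36 at day 14 and 78.3% ± 3.67 at day 8. The shares of if2a in lufenuron fish did not overlap between the days. The beta entry with most reads, LOC106582627, rose by 0.43 ± 0.12 (log2 fold change and SE, as in what follows) in lufenuron fish (adjusted p = 0.00599) and by 0.48 ± 0.12 in control fish (0.00521). Neither gamma entry passed in either set.

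Most entries of eIF1, eIF1A and eIF2B rose in lufenuron fish, where 17.7% of all genes rose, against 10.4% of all genes in control fish. All 8 eIF1 and eIF1A entries rose in lufenuron fish and 7 of 8 in control fish, with median log2 fold changes of 0.71 in lufenuron fish and 0.58 in control fish. The eIF1 entry with most reads, LOC106607501, rose by 0.35 ± 0.10 in lufenuron and 0.30 ± 0.10 in control fish, where the call was lost with total counts as the only scaling (adjusted p = 0.0793). The eIF1 entry LOC106600817 averaged 83.2 ± 18.4 CPM in lufenuron fish of day 14 and 49.5 ± 8.22 CPM in those of day 8 (log2 fold change 0.75 ± 0.13, adjusted p = 1.37e-05). Among the 10 eIF2B entries, 8 rose in lufenuron fish and 5 in control fish, or 3 in control fish with total counts as the only scaling. The gamma subunit entry ei2bg, part of the catalytic core, had 12.3 ± 3.39 CPM in lufenuron fish of day 14 and 6.19 ± 0.985 CPM in those of day 8 (0.99 ± 0.15, adjusted p = 1.36e-06), and rose by 0.63 ± 0.14 in control fish (0.00210). The catalytic epsilon entry eif2b5, with most reads, rose by 0.39 ± 0.12 in lufenuron and 0.36 ± 0.12 in control fish, where it did not pass with total counts as the only scaling (0.127). The regulatory alpha-like entry LOC106568294 rose by 0.58 ± 0.12 in lufenuron and 0.48 ± 0.12 in control fish.

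Most eIF3 entries did not pass the test under TMM scaling. When library totals alone set the scale, 16 of 30 entries passed as rises in lufenuron fish and 2 in control fish. Under TMM, 11 of the 30 rose in lufenuron fish and 3 in control fish, and none fell. That is 36.7% and 10.0% called, against 34.9% and 19.3% of all genes, of which 17.7% and 10.4% rose. The median log2 fold changes were 0.19 in lufenuron and 0.15 in control fish. The 3 that rose in control fish were all subunit J entries: eif3j_1 by 0.97 ± 0.20, LOC106561754 by 0.73 ± 0.18 and eif3j by 0.45 ± 0.13, of which eif3j did not pass with total counts as the only scaling (adjusted p = 0.0659). In lufenuron fish, eif3j_1 had 10.1, 18.7 and 32.2 CPM as the lowest, median and highest level at day 14, against 4.17, 7.08 and 11.6 CPM at day 8, a log2 fold change of 1.43 ± 0.20 (adjusted p = 7.54e-07). Only lufenuron fish 7 of day 8 reached into the day 14 range. The core subunit B-like LOC106593793 rose by 0.49 ± 0.11 in lufenuron fish (adjusted p = 3.76e-04) and had 0.091 ± 0.11 in control fish, which did not pass. The subunit C entry LOC106578327 had -0.04 ± 0.12 in lufenuron and 0.076 ± 0.12 in control fish and passed in none of the 51 alternatives.

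The cap-binding group held entries that rose and entries that fell. Of the 32 eIF4 entries, 17 rose and 4 fell in lufenuron fish, and 11 rose and 2 fell in control fish. That is 65.6% and 40.6% called, against 34.9% and 19.3% of all genes. The counts became 18 and 1 in lufenuron fish and 7 and 2 in control fish with total counts as the only scaling. The eIF4G 1-like entry LOC106568864 had 76.0, 154 and 266 CPM as the lowest, median and highest level in lufenuron fish of day 14, against 43.5, 81.8 and 104 CPM in those of day 8 (log2 fold change 1.15 ± 0.23, adjusted p = 1.28e-04). Lufenuron fish 2 and 5 of day 14 lay within the day 8 range. eIF4G2 is a scaffold that lacks the eIF4E-binding site, and its 4 entries LOC106561567, LOC106573141, LOC106562105 and LOC106587155 rose in lufenuron fish by 0.73, 0.53, 0.80 and 0.66 and in control fish by 0.46, 0.25, 0.56 and 0.89. Under that scaling LOC106573141 did not pass in control fish (0.19, adjusted p = 0.200).

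Among eIF4E entries, if4e rose in lufenuron fish by 1.45 ± 0.27 (adjusted p = 5.08e-05) and had 0.61 ± 0.26 in control fish, which did not pass (0.0966), and LOC106577251 rose by 1.48 ± 0.23 in lufenuron and 0.71 ± 0.23 in control fish. The eIF4E family member 3 entries fell. The entry eif4e3_1 averaged 18.9 ± 5.41 CPM in lufenuron fish of day 14 and 30.1 ± 5.6 CPM in those of day 8 (log2 fold change -0.67 ± 0.16, adjusted p = 8.93e-04), and 16.3 ± 4.71 CPM in control fish of day 14 and 25.4 ± 5.42 CPM in those of day 8 (-0.64 ± 0.16, 0.00358). Its duplicate eif4e3 fell by 0.43 in lufenuron and 0.49 in control fish on the log2 scale, and the call in lufenuron fish was lost with total counts as the only scaling. In mammals eIF4E3 binds the cap in an atypical way. The eIF4G3-like LOC106582990 fell by 0.36 in lufenuron fish, a call also lost under that scaling, and had -0.012 in control fish.

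Entries of the factors of subunit joining also rose. Of 13 eIF5, eIF5A, eIF5B and eIF6 entries, 10 rose in lufenuron fish and 8 in control fish, and none fell. Over all genes, 17.7% rose in lufenuron fish and 10.4% in control fish. The eIF5-like entry LOC106571123, an activator of the GTPase of eIF2, rose by 0.89 ± 0.16 in lufenuron fish (adjusted p = 4.27e-05) and by 0.69 ± 0.16 in control fish (0.00234), and LOC106574637, an eIF5B-like GTPase that joins the ribosomal subunits, rose by 1.07 ± 0.17 in lufenuron and 0.73 ± 0.17 in control fish. The second eIF5-like entry, LOC106610956, rose by 0.49 ± 0.11 in lufenuron and 0.68 ± 0.11 in control fish, the smallest p among rises in control fish. The eIF5A entry with most reads, LOC106590523, whose protein carries the hypusine residue and helps stalled ribosomes, had -0.11 ± 0.10 in lufenuron and 0.0086 ± 0.10 in control fish and did not pass in either. Among factors outside these groups, the eIF4E transporter-like LOC106583551, in mammals a repressor that carries eIF4E into the nucleus, rose by 0.41 ± 0.13 in lufenuron and 0.52 ± 0.13 in control fish. The entry eif1ad, which holds an eIF1A domain, rose by 1.12 ± 0.18 in lufenuron fish, where the days did not overlap, and by 0.68 ± 0.18 in control fish. Further, eif2d, which can place initiator transfer RNA without eIF2, rose by 1.08 ± 0.16 in lufenuron fish (adjusted p = 2.64e-06), and eif2a, the unrelated single-chain factor eIF2A, had 0.25 ± 0.13, which did not pass (0.121) but did with total counts as the only scaling (0.00482).

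**Figure D4:**
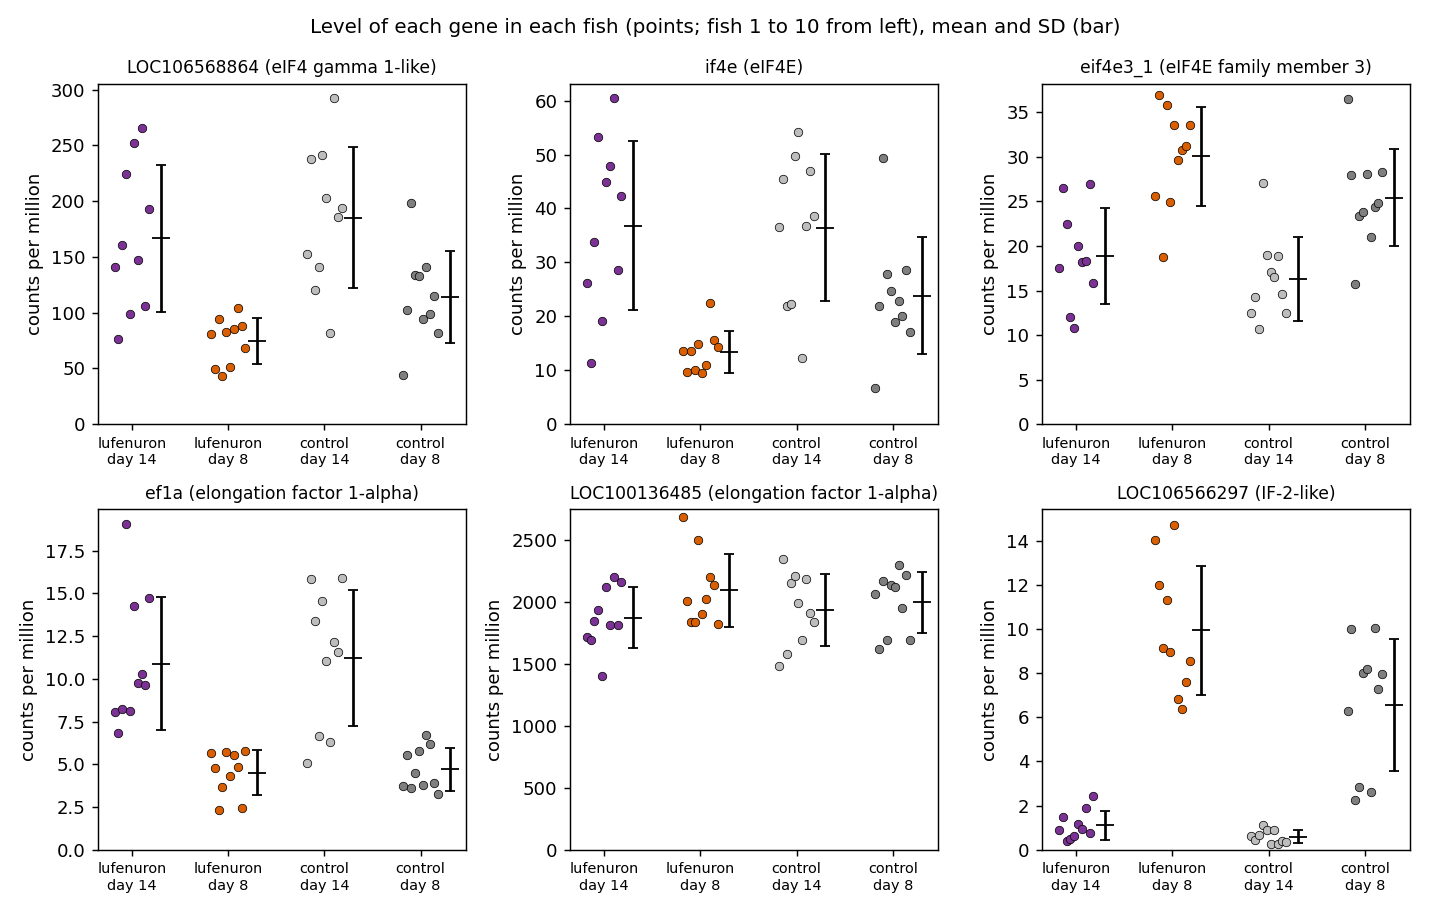
CPM of 6 members in each fish (points, fish 1 to 10 from left to right within a group), with the mean and SD of each group as a bar, n = 10. The eIF4G, eIF4E and ef1a panels are higher at day 14, eif4e3_1 and LOC106566297 are lower, and LOC100136485 lies between 1402 and 2684 CPM over all groups.

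Among elongation factors, the entries with most reads did not pass over time. The eEF1A entries LOC100136485 and LOC100136525 had log2 fold changes over time of -0.16 ± 0.095 and 0.074 ± 0.11 in lufenuron fish and -0.042 ± 0.095 and 0.15 ± 0.11 in control fish, and passed in none of the 51 alternatives. The far less read ef1a had 6.81, 9.69 and 19.1 CPM as the lowest, median and highest level in lufenuron fish of day 14, against 2.30, 4.81 and 5.79 CPM in those of day 8, with no overlap (log2 fold change 1.27 ± 0.21, adjusted p = 8.77e-06). In control fish it had 5.05, 11.9 and 15.9 CPM at day 14, against 3.26, 4.21 and 6.74 CPM at day 8 (1.26 ± 0.21, 5.37e-05). Lufenuron and control fish lay close together for ef1a on both days (log2 fold changes -0.046 at day 14 and -0.063 at day 8). The second entry with few reads, LOC106588478, rose by 0.81 ± 0.19 in lufenuron and 0.73 ± 0.19 in control fish. The split of reads between these entries and the other copies is uncertain.

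Of 9 eEF1B and eEF1E1 entries, 3 rose in lufenuron fish and 1 in control fish. That is 33.3% and 11.1% called, not above the 34.9% and 19.3% of all genes, of which 17.7% and 10.4% rose. The gamma entry ef-1g, with most reads, had -0.11 ± 0.089 in lufenuron and 0.13 ± 0.089 in control fish. The rise with the smallest p was that of eef1e1, in mammals a scaffold protein of the aminoacyl-tRNA synthetase complex, which averaged 11.0 ± 3.13 CPM in lufenuron fish of day 14 and 4.96 ± 0.818 CPM in those of day 8 (log2 fold change 1.14 ± 0.16, adjusted p = 7.76e-07) and rose by 0.62 ± 0.16 in control fish (0.00527). The eEF2-like entry with most reads, LOC106569524, had -0.12 ± 0.091 in lufenuron and 0.025 ± 0.091 in control fish. The eEF2-like entries LOC106570964 and LOC106600009 fell by 0.83 and 0.41 in lufenuron fish on the log2 scale (adjusted p = 5.66e-04 and 0.0303) and had -0.45 and -0.18 in control fish, which did not pass, though with total counts as the only scaling LOC106570964 did (0.0488). LOC106570964 rested in part on lufenuron fish 9 of day 8, at 6.78 CPM, and its fall still passed without that fish (-0.51, adjusted p = 0.00154), whereas LOC106600009 had -0.22 and did not pass with total counts as the only scaling (0.328).

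The IF-2-like entries carry the name of the bacterial initiation factor, and the files give no other role. Of 17 such entries, 7 were tested. Of these, 5 fell in lufenuron fish and 1 in control fish, and none rose. Over all genes, 17.2% fell in lufenuron fish and 8.97% in control fish. In each set 6 of the 7 had negative values, with medians of -0.81 in lufenuron and -0.61 in control fish. The difference of the lufenuron effect between the days called 0 of them. LOC106566297 had 0.420, 0.905 and 2.42 CPM as the lowest, median and highest level in lufenuron fish of day 14, against 6.40, 9.04 and 14.7 CPM in those of day 8. In control fish it had 0.260, 0.543 and 1.13 CPM at day 14 and 2.24, 7.63 and 10.0 CPM at day 8. The days did not overlap in either set, and the log2 fold changes were -3.17 ± 0.32 in lufenuron fish (adjusted p = 1.74e-09) and -3.45 ± 0.33 in control fish (1.00e-08), the largest in size among the 139 members tested.

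Among the others, LOC106613369, which had most reads, fell by 0.52 in lufenuron fish (adjusted p = 3.17e-04), LOC106591077 by 0.81 (0.00793), a call lost with total counts as the only scaling, and LOC106586920, which reached at most 1.21 CPM in any fish, by 2.05 (0.00901). LOC106570110 fell by 2.03 on the log2 scale in lufenuron fish (adjusted p = 0.0122), but lufenuron fish 3 of day 8 stood at 14.6 CPM. Without it the value was -1.23 (0.102). The same fish had 236 CPM of summed gut and bile duct epithelium markers, against 7.03 CPM as the median of its group. The eIF4B-like entry LOC106572753 also had its highest level in that fish, 3.67 CPM, and its fall of 0.75 (adjusted p = 0.0336) did not pass without it (-0.59, 0.0949). The part of gut or duct tissue in these values was not tested.

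Markers of other cells moved with the sampling day as well. Erythrocyte markers summed to 1345 to 4261 CPM in lufenuron fish of day 14 and 1218 to 2159.6 CPM in those of day 8, and to 1519.8 to 3637 CPM in control fish of day 14 and 1258 to 2468 CPM in those of day 8. Of their 27 tested entries, 16 rose in lufenuron and 13 in control fish, and 4 of all 40 were at 0. Of 11 tested stellate cell and endothelium markers, 6 fell in lufenuron and 4 in control fish. In lufenuron fish, 5 of 7 gut and bile duct markers fell (median log2 fold change of the list -2.94) and 5 of 15 hepatocyte markers fell (median -0.30), while 3 of 9 macrophage and neutrophil and 2 of 4 lymphocyte markers rose. No marker of these lists passed over time in control fish. Gut and bile duct markers had a median sum of 7.03 CPM in lufenuron fish of day 8 and 4.86 CPM in those of day 14. Lufenuron fish 3 and 10 of day 8 held 236 and 49.2 CPM. Macrophage and neutrophil markers had medians of 18.3 CPM at day 8 and 18.4 CPM at day 14 in lufenuron fish. Lufenuron fish 9 of day 14 held 57.7 CPM of these, the most lymphocyte markers (12.8 CPM) and the least hepatocyte markers (86754 CPM). The part of single fish was not tested. The difference between the sets, tested as the lufenuron effect at day 14 minus that at day 8, called no marker of any list. Its median was -1.61 for gut and bile duct markers and -0.40 for hepatocyte markers. Over all genes, 17.7% rose and 17.2% fell over time in lufenuron fish, and 10.4% rose and 8.97% fell in control fish. The part of other cells in the changes over time was not tested.

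Members also varied together among fish of the same group. After the group mean was taken out, the median Pearson r over the 9591 pairs of tested members was 0.229 across the 40 fish, against -0.00317 over pairs taken from 1 in every 10 genes tested, and 117 of 139 members had a positive median r with the others. The entry if2a had r = 0.784 with LOC106602525, 0.715 with LOC106571672, 0.284 with LOC106608216 and 0.798 with eif3j_1, and if4e had r = 0.954 with LOC106577251. These r values describe points that share a library and its scaling. The genes of the comparison pairs were not matched to the members for read level, and copies of a factor may share reads. As a level per fish, the median over members of the log2 CPM centred on each gene's mean had a lowest, median and highest value of -0.40, -0.20 and -0.033 in lufenuron fish of day 8 and -0.34, -0.086 and 0.20 in control fish of day 8, and of -0.21, 0.12 and 0.42 in lufenuron fish of day 14 and -0.092, 0.19 and 0.40 in control fish of day 14. Lufenuron and control fish overlapped on both days.

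Genes that act with these factors were grouped in lists. The helicase eIF4A, which unwinds the message for scanning, is named "initiation factor 4A" in the table and fell outside the rule. Its list was added after the names had been read. Of 7 entries none passed at day 8, 5 rose over time in lufenuron fish and 3 in control fish, where 17.7% and 10.4% of all genes rose. LOC106608954, an eIF4A-I entry, averaged 341 ± 130.2 CPM in lufenuron fish of day 14 and 132 ± 45 CPM in those of day 8 (log2 fold change 1.38 ± 0.22, adjusted p = 5.92e-06). Among 13 release and ribosome recycling factors, 9 rose in lufenuron and 5 in control fish, none fell, and none passed at day 8.

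The 4E-binding proteins block eIF4E from eIF4G until mTOR phosphorylates them. Of their 7 entries, 3 fell over time in each set of fish and the other 4 did not pass, while 17.2% of all genes fell in lufenuron fish and 8.97% in control fish. The entry 4ebp_2 averaged 12.1 ± 3.87 CPM in lufenuron fish of day 14 and 61.8 ± 23.2 CPM in those of day 8 (-2.35 ± 0.35, adjusted p = 1.61e-06), and 10.6 ± 8.66 CPM in control fish of day 14 and 52.1 ± 13.9 CPM in those of day 8 (-2.30 ± 0.35, 1.64e-05). The others were 4ebp, with -1.14 in lufenuron and -0.94 in control fish, and 4ebp_1, with -1.0 in lufenuron and -1.38 in control fish. eEF2 kinase, which halts elongation by phosphorylating eEF2, had an entry, LOC106589523, that fell by 1.65 in lufenuron fish (adjusted p = 2.27e-07) and by 0.59 in control fish (0.0472), and a second, eef2k, that rose by 0.51 in lufenuron fish (0.0327).

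In the mTOR list of 33 entries, 4 rose and 5 fell in lufenuron fish, and 2 rose and 5 fell in control fish. That is 27.3% of the list in lufenuron fish and 21.2% in control fish, against 34.9% and 19.3% of all genes, so the list was not called more often than all genes in lufenuron fish and about as often in control fish. LOC106592479, which is like the mTOR inhibitor DDIT4, fell by 5.10 in lufenuron (adjusted p = 6.70e-09) and by 4.06 in control fish (1.16e-06) on the log2 scale. S6 kinase, a target of mTOR, had entries in each direction: LOC106609967, like beta-2, fell by 0.87 in lufenuron and 0.63 in control fish, and LOC106581130 and LOC106613000, like beta-1, rose by 0.92 and 0.60 in lufenuron fish and by 0.40 and 0.40 in control fish. Among 9 eIF2 alpha kinases and phosphatase subunits, 2 rose and 1 fell in lufenuron fish, 3 rose in control fish, and none passed at day 8. The share called over time was 33.3% in each set. The interferon-induced kinase entry eif2ak2 rose by 0.90 ± 0.23 in lufenuron and 0.74 ± 0.23 in control fish, and eif2ak3, which senses stress of the endoplasmic reticulum, fell by 0.51 in lufenuron fish (adjusted p = 0.0150). In the list of ATF4, CHOP and TRIB3, whose proteins act downstream of eIF2 alpha phosphorylation, 1 of 6 entries passed at day 8: trib3, a pseudokinase gene, was higher with lufenuron at day 8, with 5.50, 7.62 and 18.3 CPM as the lowest, median and highest level in lufenuron fish, against 1.97, 3.97 and 11.1 CPM in control fish of day 8 (log2 fold change 0.96 ± 0.25, adjusted p = 0.0389). The groups overlapped.

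The enzymes that modify eIF5A and eEF2 held entries that fell at day 8. LOC106613590, like the methyltransferase of the diphthamide pathway that modifies eEF2, had 0.866, 1.70 and 2.57 CPM as the lowest, median and highest level in lufenuron fish, against 2.06, 3.25 and 7.73 CPM in control fish of day 8 (log2 fold change -1.05 ± 0.23, adjusted p = 0.0185). LOC106613855, like the deoxyhypusine hydroxylase that completes hypusine on eIF5A, averaged 4.28 ± 0.90 CPM in lufenuron fish and 6.6 ± 1.93 CPM in control fish of day 8 (-0.63 ± 0.16, 0.0391). Of the 10 enzymes tested, 2 thus fell at day 8, where 1.16% of all genes fell, and 0 changed at day 14. Over time 7 rose in lufenuron and 2 in control fish, where 17.7% and 10.4% of all genes rose. Without the fish over 100 CPM of exocrine pancreas markers, trib3 (adjusted p = 0.139), LOC106613590 (0.0692) and LOC106613855 (0.204) did not pass. Over the 51 alternatives, trib3 passed in 34, LOC106613590 in 49 and LOC106613855 in 36. Of the 6 entries in the list of ATF4, CHOP and TRIB3, 4 had negative values at day 8, with a median log2 fold change of -0.12. Over all genes, 0.467% rose at day 8. Apart from trib3, that list thus showed no called rise at day 8. Over time, 3 of its 6 entries rose in lufenuron fish and 3 in control fish, and 0 fell. Over all genes, 17.7% rose in lufenuron fish and 10.4% in control fish.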

How the data were processed

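Messenger RNA was purified from total liver RNA with poly-T beads and made into libraries with NEBNext reagents, per the labels' protocols, for 40 fish in 4 groups of 10. The authors deposited 1 table of raw read counts per gene. HISAT2, HTSeq, Cufflinks and DESeq2 are named in the submitters' processing notes. The genome build, the strand setting and the handling of reads shared by duplicated genes are not stated in these sources. Of 79140 entries, 29369 held no counts.

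From these counts, edgeR 4.0.16 in R 4.3.3 was run on all 40 fish, with TMM scaling, its filter on low counts (minimum 10, total 15), a robust quasi-likelihood fit with 1 coefficient per group, and Benjamini-Hochberg adjustment over the 30397 genes kept, at a threshold of 0.05. Between fish of a group, edgeR's common coefficient of biological variation came to 0.371. The tests were tried on simulated data. CPM use TMM-scaled library sizes, and correlations used log2(CPM + 0.1). DESeq2 1.42.0, RLE or total-count scaling, no filter, other sets of fish, and covariates for body weight, pancreas markers or the replicate number were alternatives. Two-sided tests were used throughout.

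Named members are, per contrast, up to 12 past the threshold with the smallest p in each direction (3 where none passed), the member with most reads in each role, and their duplicates. Genes named from related lists are up to 4 past the threshold. Members and lists were chosen with earlier results of these data known. By symbol or identifier, 107 of 163 members matched an entry of the RefSeq gene table, from which no coordinate is printed.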

Additional observations from a re-analysis of the deposited data

Results flagged for a closer look

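Among the 45 named members, each of the 4 groups of 10 fish was searched for a fish that stood apart from the others of its group by a gap wide against the whole range (Dixon's criterion). This picked out 16 of 180 groups, or 8.89%, and in every case the fish was the highest of its group. The criterion picks about 1 in 20 by chance where values are normal and groups independent. These members share the same fish and vary together, so the shares cannot be compared. No cause was tested.

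Initiation factors of the cap and of subunit joining held several. The eIF4G2-like LOC106587155 stood at 61.0 CPM in lufenuron fish 7 of day 8 (others 20.9 to 29.0 CPM) and at 67.0 CPM in lufenuron fish 4 of day 14 (others 35.4 to 49.0 CPM). The second eIF4G2-like entry LOC106562105 stood apart in the same fish of day 8, at 26.9 CPM in lufenuron fish 7 of day 8 (others 14.5 to 19.9 CPM). The eIF5-like LOC106610956 was at 42.2 CPM in lufenuron fish 4 of day 14 (others 26.1 to 34.6 CPM), again the fish that stood apart for LOC106587155. The cap-binding eif4e3_1 was at 27.1 CPM in control fish 4 of day 14 (others 10.6 to 19.0 CPM), the eIF4B-like LOC106572753 at 3.67 CPM in lufenuron fish 3 of day 8 (others 1.22 to 2.18 CPM), and the eIF5A-1 entry LOC106608670 at 1.86 CPM in lufenuron fish 10 of day 14 (others 0.888 to 1.26 CPM).

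In the eIF2 and eIF3 groups, the eIF2B gamma entry ei2bg stood at 13.7 CPM in control fish 3 of day 8 (others 4.90 to 9.27 CPM), eif2d at 4.29 CPM in lufenuron fish 8 of day 8 (others 2.31 to 3.28 CPM) and the eIF3 subunit C entry LOC106578327 at 376 CPM in lufenuron fish 1 of day 8 (others 183 to 272 CPM). Among elongation factors, the eEF2-like LOC106570964 was at 6.78 CPM in lufenuron fish 9 of day 8 (others 1.52 to 2.46 CPM). The eEF1B gamma entry ef-1g was at 597 CPM in control fish 7 of day 14 (others 409.8 to 482 CPM).

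The IF-2-like entries, which had few reads, gave the rest. LOC106570110 was at 14.6 CPM in lufenuron fish 3 of day 8 (others 0.132 to 7.05 CPM), the fish with the highest sum of gut and bile duct markers, and at 3.06 CPM in control fish 9 of day 14 (others 0.145 to 1.36 CPM). LOC106586920 was at 0.699 CPM in control fish 1 of day 8 (others 0.0179 to 0.299 CPM) and at 0.222 CPM in control fish 3 of day 14 (others 0 to 0.117 CPM). Where leaving out such a fish ended a call, for LOC106570110 and LOC106572753 over time in lufenuron fish, the value without it stands with the result above. Without lufenuron fish 9 of day 8, LOC106570964 passed over time in control fish, at a log2 fold change of -0.45 (edgeR, adjusted p = 0.00904, against 0.0851 with all fish). Without lufenuron fish 8 of day 8, eif2d passed at day 8 between lufenuron and control fish (-0.60, edgeR, adjusted p = 0.0425, against 0.0865 with all fish). Without control fish 3 of day 14, LOC106586920 passed over time in control fish (-2.40, edgeR, adjusted p = 0.0167, against 0.0618 with all fish).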

How the results depend on the processing

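The count of members that passed at day 8, 3 with all fish, was the result that moved most. It was 7 with DESeq2 (6 lower and 1 higher in lufenuron fish, if2a, LOC106602525, eif3j_1, LOC106577251, if4e and eif1ad lower and LOC106570964 higher). It was 1 with no filter, with only the groups of the contrast, with pancreas markers as a covariate, and with the replicate number as a block. It was 0 without the fish over 100 CPM of pancreas markers, where 34 genes passed in all against 494; this alternative was chosen after the data were seen and holds fewer fish. Leaving out each fish in turn gave 1 to 12. Over 51 alternatives, if2a passed in 50 (adjusted p 7.98e-04 to 0.0684), LOC106602525 in 31 (0.00843 to 0.124) and eif3j_1 in 30 (0.0163 to 0.223), all with negative values. No cause of these shifts in the count was tested. For the difference between days, 1 member passed with DESeq2 and 1 with total counts as the only scaling, if2a in both, and leaving out each fish in turn gave 0 to 1, with 1 without control fish 1 of day 8 or lufenuron fish 2 of day 14. Total-count scaling also moved medians: at day 14 to 0.12 over the members and 0.19 over all genes, for the difference to 0.30 and 0.25, and over time in lufenuron fish to 0.52 and 0.16. Calls of the difference over all genes were then 97.4% higher, against 53.3% with TMM. With body weight as a covariate, 75 members passed over time in lufenuron fish and 46 in control fish, against 82 and 49 without it. The member medians were then 0.31 and 0.27. Without the 3 control fish of day 14 under 20 g, 84 members passed over time in lufenuron fish and 47 in control fish. Control fish 7 and 10 of day 14 had weights of 18 and 17 g at lengths of 16.5 and 15.4 cm. Whether such weights are typing errors could not be settled, so the fit with body weight is uncertain. Leaving out each fish in turn gave 75 to 87 members over time in lufenuron fish, 35 to 63 in control fish and 0 at day 14 in each. No named member that passed with all fish changed its sign under these alternatives. Among single members, 2066 values kept their side of the threshold when a fish was left out, 52 lost it and 2 gained it, and 543, 32 and 2 did so under the others. Replicate numbers did not pair the fish: over 40 comparisons of deviations from the group means, same-numbered fish had r of -0.240 to 0.297, with 9 over 0.1 and 7 fish closest to their own number. Entries under about 1 CPM, such as LOC106586920, rest on few reads per fish.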

Other observations

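Mitochondria carry their own translation factors, among them elongation, release and ribosome recycling factors, encoded in the nucleus and named outside the rule. Of 12 such entries tested, 5 rose and 0 fell between day 8 and day 14 in lufenuron fish, and 2 rose and 1 fell in control fish (edgeR, adjusted p under 0.05). That is 41.7% of the list in lufenuron fish and 25.0% in control fish, near the 34.9% and 19.3% of all genes. The elongation factor gfm1, which moves the mitochondrial ribosome, averaged 23.8 ± 6.95 CPM in lufenuron fish of day 14 and 7.10 ± 2.04 CPM in those of day 8 (SD, n = 10 each), a log2 fold change of 1.75 ± 0.23 (SE, edgeR, adjusted p = 1.92e-07). In control fish gfm1 averaged 22.7 ± 8.16 CPM at day 14 and 12.1 ± 4.10 CPM at day 8 (0.91 ± 0.22, 0.00346). None of this list passed between lufenuron and control fish on either day.

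Poly(A)-binding proteins bind the tail of the message, and the cytoplasmic ones hold on to eIF4G. Of 18 entries for these proteins and their partners, 6 rose and 2 fell over time in lufenuron fish (44.4%, against 34.9% of all genes). In control fish 4 rose and 1 fell (27.8%, against 19.3% of all genes). At day 8, LOC106579615, like the nuclear poly(A)-binding protein 2, had 4.97, 9.24 and 11.5 CPM as the lowest, median and highest level in lufenuron fish, against 8.01, 15.2 and 17.7 CPM in control fish. Its log2 fold change was -0.74 ± 0.15 (edgeR, adjusted p = 0.0133). It passed in 50 of 51 alternatives, but not without the fish over 100 CPM of pancreas markers (adjusted p = 0.0871). The MNK kinases phosphorylate eIF4E on eIF4G. Of their 4 entries, 2 fell over time in lufenuron fish, and 1 rose and 1 fell in control fish. Over all genes, 34.9% were called in lufenuron and 19.3% in control fish. LOC106584368, like MNK2, fell by 0.89 in lufenuron and 0.78 in control fish on the log2 scale.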
